A study of Drosophila melanogaster with 6 samples.

Results

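Transfer RNA fragments of 36 to 50 nt are longer than the 5′ pieces of 30 to 35 nt that make up most of the tRNA-derived small RNA in these libraries. Members were chosen by listed length alone, with each distinct sequence counted once per library. Of 3423 distinct sequences in the 6 lists, 2203 were 36 to 50 nt long. A further 794 were 30 to 35 nt and 426 were 51 nt, the longest length listed. RNA came from bodies of adult male Drosophila melanogaster without testes, and the deposited lists give read counts of small RNAs that match tRNA genes. The comparison flies were labelled w1118; +/Dnmt2 mutant;+/+, that is heterozygous for a Dnmt2 mutation, and the others w1118; Dnmt2 mutant/Dnmt2 mutant;+/+. Control flies of each genotype were 10 days old and untreated. Heat shock flies were 10 days old and taken 5 h after a heat shock of 1 h at 37 °C. Recovery flies had the same heat shock, then 2 days of recovery, and were 12 days old. Each of the 6 groups is 1 library, no label describes separate cultures, and p-values therefore measure only the spread between these libraries. The effect of recovery cannot be told apart from that of 2 more days of age. The series title calls the heterozygotes wild type, and the sample labels were followed here. Values of the 3 libraries of a genotype are given in the order control, heat shock, recovery.

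Ribonucleases cut tRNAs in the anticodon loop under stress, which leaves a 5′ piece that starts at the first base and a 3′ piece that ends at the CCA tail. Dnmt2 methylates cytosine 38, just behind the anticodon, in a few tRNAs that include Asp-GTC, Gly-GCC and Val-AAC, and this methyl group is known to protect tRNAs from cutting. Many tRNAs also carry 1-methyladenosine in the T loop at position 58, which a reverse transcriptase often reads as another base, and inosine at the first anticodon base, which it reads as G. Reads are named here by amino acid and anticodon, and bases are numbered with the first anticodon base as 34.

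The reads that carry the results for Asp-GTC, Gln-CTG and Cys-GCA are shown first, as listed, with the anticodon bases in capitals. Both 5′ reads of 36 nt stop behind the anticodon, 2 bases before position 38. The 36-nt 3′ read of Asp-GTC begins at base 37, so that it and the 5′ read meet without a base between them. The 45-nt read begins at base 28, in front of the anticodon, and holds the cytosine at 38. The Cys-GCA read runs through the anticodon to base 43.
Asp-GTC, 36 nt, bases 1 to 36: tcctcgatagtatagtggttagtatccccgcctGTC
Asp-GTC, 36 nt, bases 37 to 72: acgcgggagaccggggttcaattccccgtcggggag
Asp-GTC, 37 nt, bases 36 to 72: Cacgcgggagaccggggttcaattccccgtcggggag
Asp-GTC, 45 nt, bases 28 to 72: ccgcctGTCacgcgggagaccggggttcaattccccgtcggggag
Gln-CTG, 36 nt, bases 1 to 36: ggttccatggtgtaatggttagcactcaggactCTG
Gln-CTG, 38 nt, bases 17 to 54: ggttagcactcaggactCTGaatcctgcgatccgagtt
Cys-GCA, 42 nt, bases 2 to 43: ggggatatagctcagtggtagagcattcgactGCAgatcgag

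The 4 spellings of a Ser-AGA read show how the base at T loop position 58 varied; this base is in capitals. The reads begin at base 37 and stop 2 bases before the last annotated base. The gene has A there. Over the 6 libraries the read with T was counted 77 times, with G 32 times, with A 31 times and with C 3 times.
Ser-AGA, T: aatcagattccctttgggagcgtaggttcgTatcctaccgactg
Ser-AGA, G: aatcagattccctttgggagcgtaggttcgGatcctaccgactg
Ser-AGA, A: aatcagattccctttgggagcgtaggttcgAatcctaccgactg
Ser-AGA, C: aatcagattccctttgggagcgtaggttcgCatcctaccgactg

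Properties of the lists bear on every value for this length class. As inferred from the listed counts, since the authors' trimming settings are unknown here, a read that matches several genes is listed in a shortened form at genes that differ near its end, and the count of that form holds the longer reads. Taking the longer reads off removed between 7.76% and 37.4% of the listed class reads of a library. The share of the class and its 3′ share are therefore given with and without them, while isoacceptor shares are as listed unless said otherwise. Mutant recovery, the smallest library with 5485 listed reads, lost the 37.4%. Mismatches to the gene were listed almost only in long reads. Among placed sequences of 36 nt or less, 5 of 905 had a mismatch, whereas reads with 1 mismatch appeared from 37 nt and with 2 from 44 nt. A 3′ read of 36 nt or less whose T loop adenosine was read as another base would thus not be listed, and the share of 3′ reads below 37 nt is a lower limit. The listed sequences match the genes, so the CCA tail is not part of the listed lengths.

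The class held 9.89% to 17.01% of the listed reads. In heterozygotes it held 1848 of 15616 reads in control, 7124 of 46965 after heat shock and 5034 of 29603 after recovery. These are shares of 11.8% (95% Wilson interval 11.3 to 12.3), 15.2% (14.9 to 15.5) and 17.01% (16.6 to 17.4). In mutants it held 6814 of 68923, 4840 of 38249 and 910 of 5485 reads in the same order. These are shares of 9.89% (9.67 to 10.1), 12.7% (12.3 to 13.0) and 16.6% (15.6 to 17.6). The mutant library was lower than the heterozygote library in each of the 3 conditions, by 1.63 ± 1.09 percentage points (mean ± SD over 3 pairs), although the 2 sets of libraries overlap. An exact paired sign-flip permutation test gave p = 0.25 (2-sided), the smallest p that 3 pairs allow. With the longer reads taken off, heterozygotes had 10.9%, 14.3%, 15.0% against 8.35%, 11.3%, 11.1% for mutants, and the mutant was again lower in all 3 conditions. The 30 to 35 nt class held 77.2% to 87.0% of the listed reads.

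**Figure D1:**
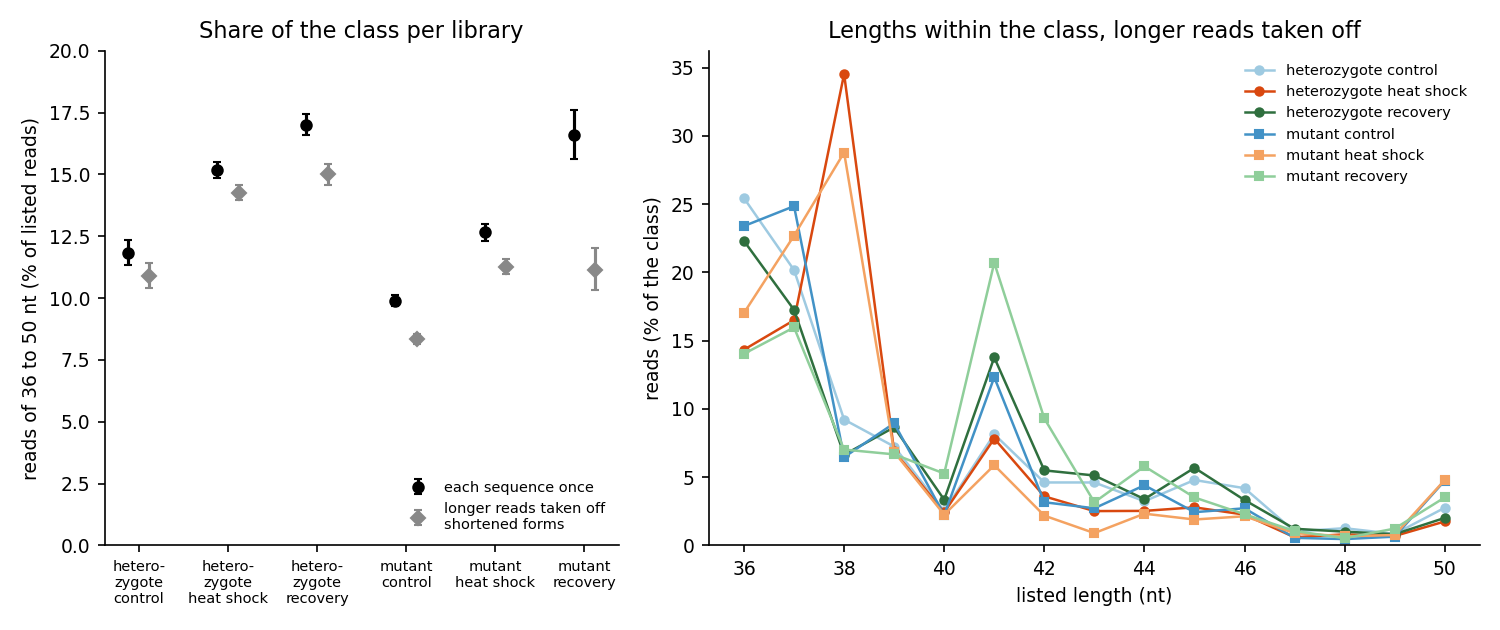
Left, share of listed reads that are 36 to 50 nt long in each of the 6 libraries (percent, with 95% Wilson intervals for counting error), with each sequence counted once (circles) and with longer reads taken off shortened forms (diamonds). Right, share of the class at each length (nt) with the longer reads taken off; the 38-nt length stands out in both heat shock libraries and the 41-nt length in mutant recovery.

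After heat shock the share of the class was higher than in control by 3.33 points in heterozygotes and by 2.77 points in mutants. Gly-GCC reads carried this rise. Without Gly-GCC, the share after heat shock was 2.36 points lower than in control in heterozygotes (13.2% against 15.5%) and 0.609 points lower in mutants (12.9% against 13.5%). Without Gly-GCC the genotypes differed in both directions: the mutant share was 1.99 points lower in control and 0.239 points lower after heat shock, and 2.30 points higher after recovery (exact permutation p = 1 for the mean). With 1 library per group, no test of either heat shock difference within a genotype was possible.

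Gly-GCC, the most abundant isoacceptor of these lists, gave the largest part of the class in every library. Its reads of 36 to 50 nt numbered 712, 3735, 1360 for heterozygotes against 2830, 2643, 390 for mutants. Its share of the class, as listed, ranged from 27.0% in heterozygote recovery to 54.6% in mutant heat shock, with a mean of 42.8%. With the longer reads taken off it gave 2583 of 4222 class reads in mutant heat shock and 158 of 570 in mutant recovery. Glu-CTC followed with a mean of 10.5%, Asp-GTC with 8.02%, Lys-CTT with 6.32% and Gln-CTG with 6.29%. These 5 isoacceptors gave 73.9% of the class on average, and the 14 with a mean of at least 1% gave 91.9%. The class held 49 isoacceptor features in all, a few of them shared by 2 anticodons.

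The isoacceptors differed widely in how much of their fragment pool was long. For Arg-CCT, between 69.2% and 96.5% of the 30 to 50 nt reads of a library were 36 nt or longer. Ser-AGA lay between 89.1% and 98.9%, and Gln-CTG between 79.0% and 87.6%. These tRNAs thus had few listed reads of 30 to 35 nt, with the limit for Ser-AGA that its 3′ reads with a changed T loop base appear from 37 nt on only. Gly-GCC lay between 7.23% and 17.7%, Glu-CTC between 7.08% and 17.4%, and Lys-CTT between 3.48% and 10.7%, so the abundant isoacceptors contributed long fragments as a minor product beside a much larger 30 to 35 nt pool. Asp-GTC was intermediate at 14.5% to 44.6%. Cys-GCA spanned 1.05% to 29.2%, with both heat shock libraries below the other 4. All these ranges are as listed. With the longer reads taken off, Gly-GCC in mutant recovery went from 14.2% to 6.29%, and Glu-CTC in mutant control from 7.08% to 4.34%.

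**Figure D2:**
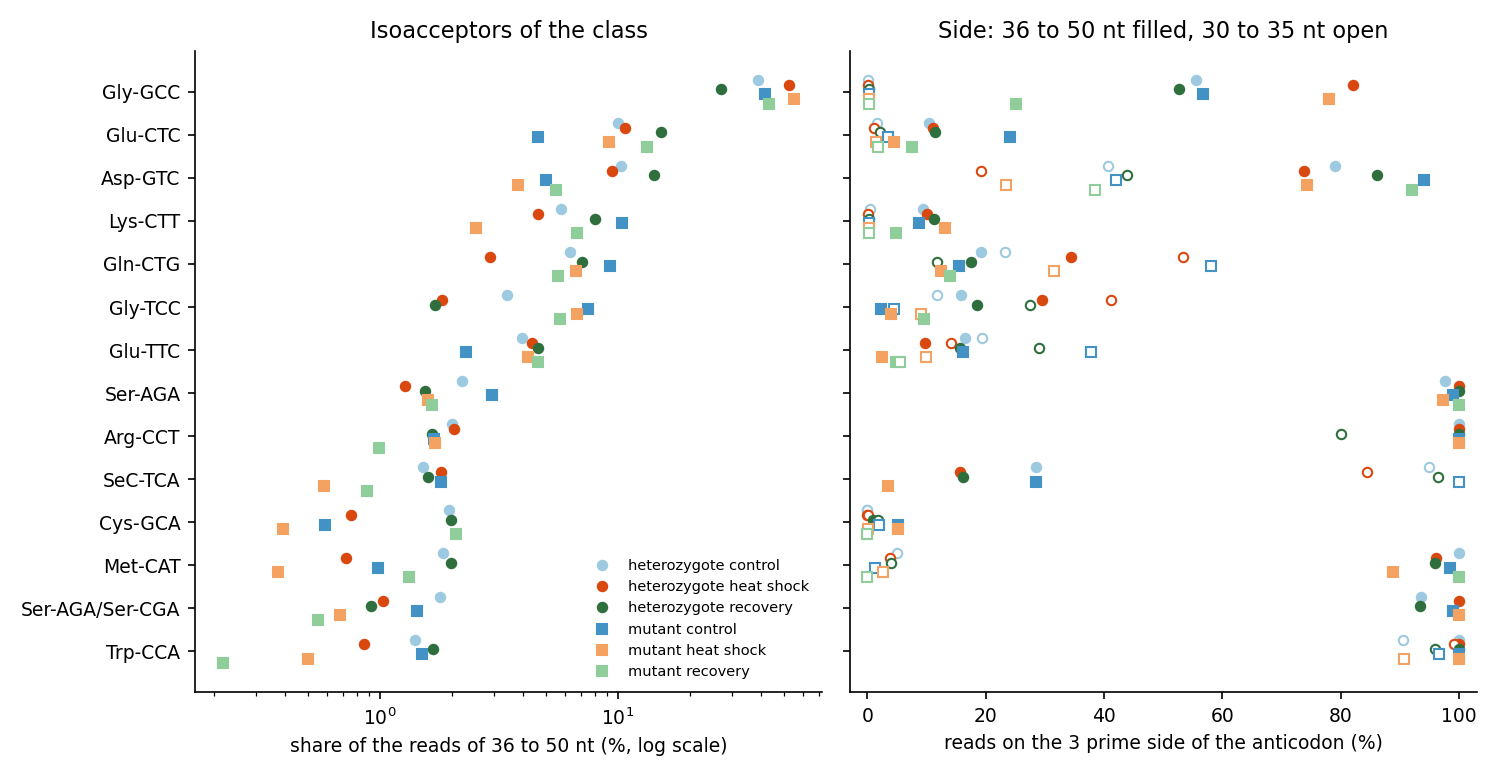
Left, share of the 36 to 50 nt reads (percent, log scale) given by each of 14 isoacceptors in each library. Right, percent of reads on the 3′ side of the anticodon for 36 to 50 nt (filled) and 30 to 35 nt (open), as listed, shown where a library had at least 10 placed reads. Arg-CCT, Ser-AGA and Trp-CCA sit at or near 100%. Lys-CTT, Cys-GCA and, apart from mutant control, Glu-CTC sit toward the left edge.

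Side was set by the part of the read that is longer, in front of or behind the anticodon. Among the class sequences, 1128 lay on the 5′ side, 967 on the 3′ side and 16 on both equally, while 92 could not be placed. Counted in reads, the 3′ side held 49.7%, 63.8%, 46.9% of the heterozygote class against 46.0%, 55.0%, 27.5% of the mutant class. With the longer reads taken off these became 51.6%, 66.2%, 49.02% against 53.0%, 61.9%, 40.6%. The class thus held both sides in every library, with mutant recovery the lowest. This mix depends on Gly-GCC: without it the 3′ side held, as listed, 46.0%, 43.6%, 44.7% against 38.3%, 26.6%, 29.2%, with mutant heat shock the lowest. These values hold shortened forms. With the longer reads taken off as well, both control libraries lay close together. Mutant heat shock was then slightly above mutant recovery, the lowest, and both stayed below the heterozygote libraries. The 30 to 35 nt class was almost entirely on the 5′ side, with 1.86% to 5.27% of reads on the 3′ side, which is the lower limit named above. The mutant library had the lower 3′ share in all 3 conditions, by 10.6 ± 8.01 points (SD, 3 pairs, exact permutation p = 0.25). With the longer reads taken off the difference was 3.79 ± 4.90 points in the same direction, in 2 of 3 conditions (exact permutation p = 0.5).

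Several isoacceptors kept to a side. Trp-CCA reads of the class were all on the 3′ side, as were those of Arg-CCT apart from 1 of 115 reads in mutant control that lay on both sides equally, and Ser-AGA and Met-CAT were on it for at least 88.9% of reads. Asp-GTC gave 73.8% to 94.1% of its long reads from the 3′ side. Lys-CTT gave 4.92% to 13.1% from that side, and Cys-GCA at most 5.26%. Gln-CTG was mixed. Of its class reads, 93 of 116, 131 of 207 and 288 of 354 were on the 5′ side for heterozygotes. In mutants these were 526 of 631, 274 of 321 and 43 of 51. Gly-GCC was on both sides, and its 3′ share was 55.6%, 82.1%, 52.6% for heterozygotes against 56.7%, 78.1%, 25.1% for mutants. For Gly-GCC both heat shock libraries were above the other 4. Glu-CTC also varied, with 24.2% on the 3′ side in mutant control and 4.51% to 11.4% in the other libraries, as listed. With the longer reads taken off, 108 of its 187 class reads in mutant control were on the 5′ side, against 235 of 314 as listed. The low mutant recovery value of Gly-GCC was 62.0% when the longer reads were taken off. There, 202 of the 390 listed Gly-GCC reads were a 47-nt 5′ form that only repeats longer reads. In the 30 to 35 nt class, no library had more than 0.274% of its Gly-GCC reads on the 3′ side, where reads with a changed T loop base would not be listed.

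Ends away from the cut lay at the tRNA's own ends. Of the 5′-side reads, 78.7% to 85.8% began at the first base. Of the 3′-side reads, 62.4% to 86.9% ended at the last annotated base and 84.5% to 97.5% within 3 nt of it. By reads, most of the class therefore had 1 end at or near an end of the tRNA.

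The cut ends of 3′-side reads were grouped around the anticodon. Length sets a limit here: a Gly-GCC or Asp-GTC read that ends at base 72, its last, begins no later than base 37. With longer reads taken off, starts at bases 33 to 39 made up 77.5%, 86.5%, 63.0% of the 3′-side reads for heterozygotes against 75.5%, 93.9%, 72.5% for mutants. Both heat shock libraries were the highest of their genotype. Weighted by distinct sequence in place of reads, the shares were 46.8% to 63.3%, so cuts outside the loop were spread over many rare sequences. Base 35 alone gave 53.7% of starts in heterozygote heat shock and 49.7% in mutant heat shock, against 12.0% to 18.0% in the other 4 libraries. Base 36 gave 21.5% to 36.5% over the 6 libraries. A single 38-nt Gly-GCC read that starts at base 35 and ends at the last base accounts for most of this, with 66, 1860, 99 copies for heterozygotes against 110, 982, 20 for mutants. The 37-nt read that starts 1 base later had 228, 672, 397 against 835, 601, 50 and showed no such peak.

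The 5′ counterpart of that cut moved by less. The 38-nt read begins right behind base 34, and of the Gly-GCC pieces of 30 to 35 nt that begin at the first base, those that end at base 34 made up 30.5%, 30.03%, 27.0% for heterozygotes against 20.8%, 23.8%, 19.9% for mutants. The heat shock value thus lay beside that of control in heterozygotes and was the highest of the 3 libraries in mutants. Among Gly-GCC reads on the 3′ side, base 35 as the start went from 20.3% in heterozygote control to 68.9% after heat shock, and from 9.05% to 58.5% in mutants. Both heat shock libraries were far above the other 4.

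**Figure D3:**
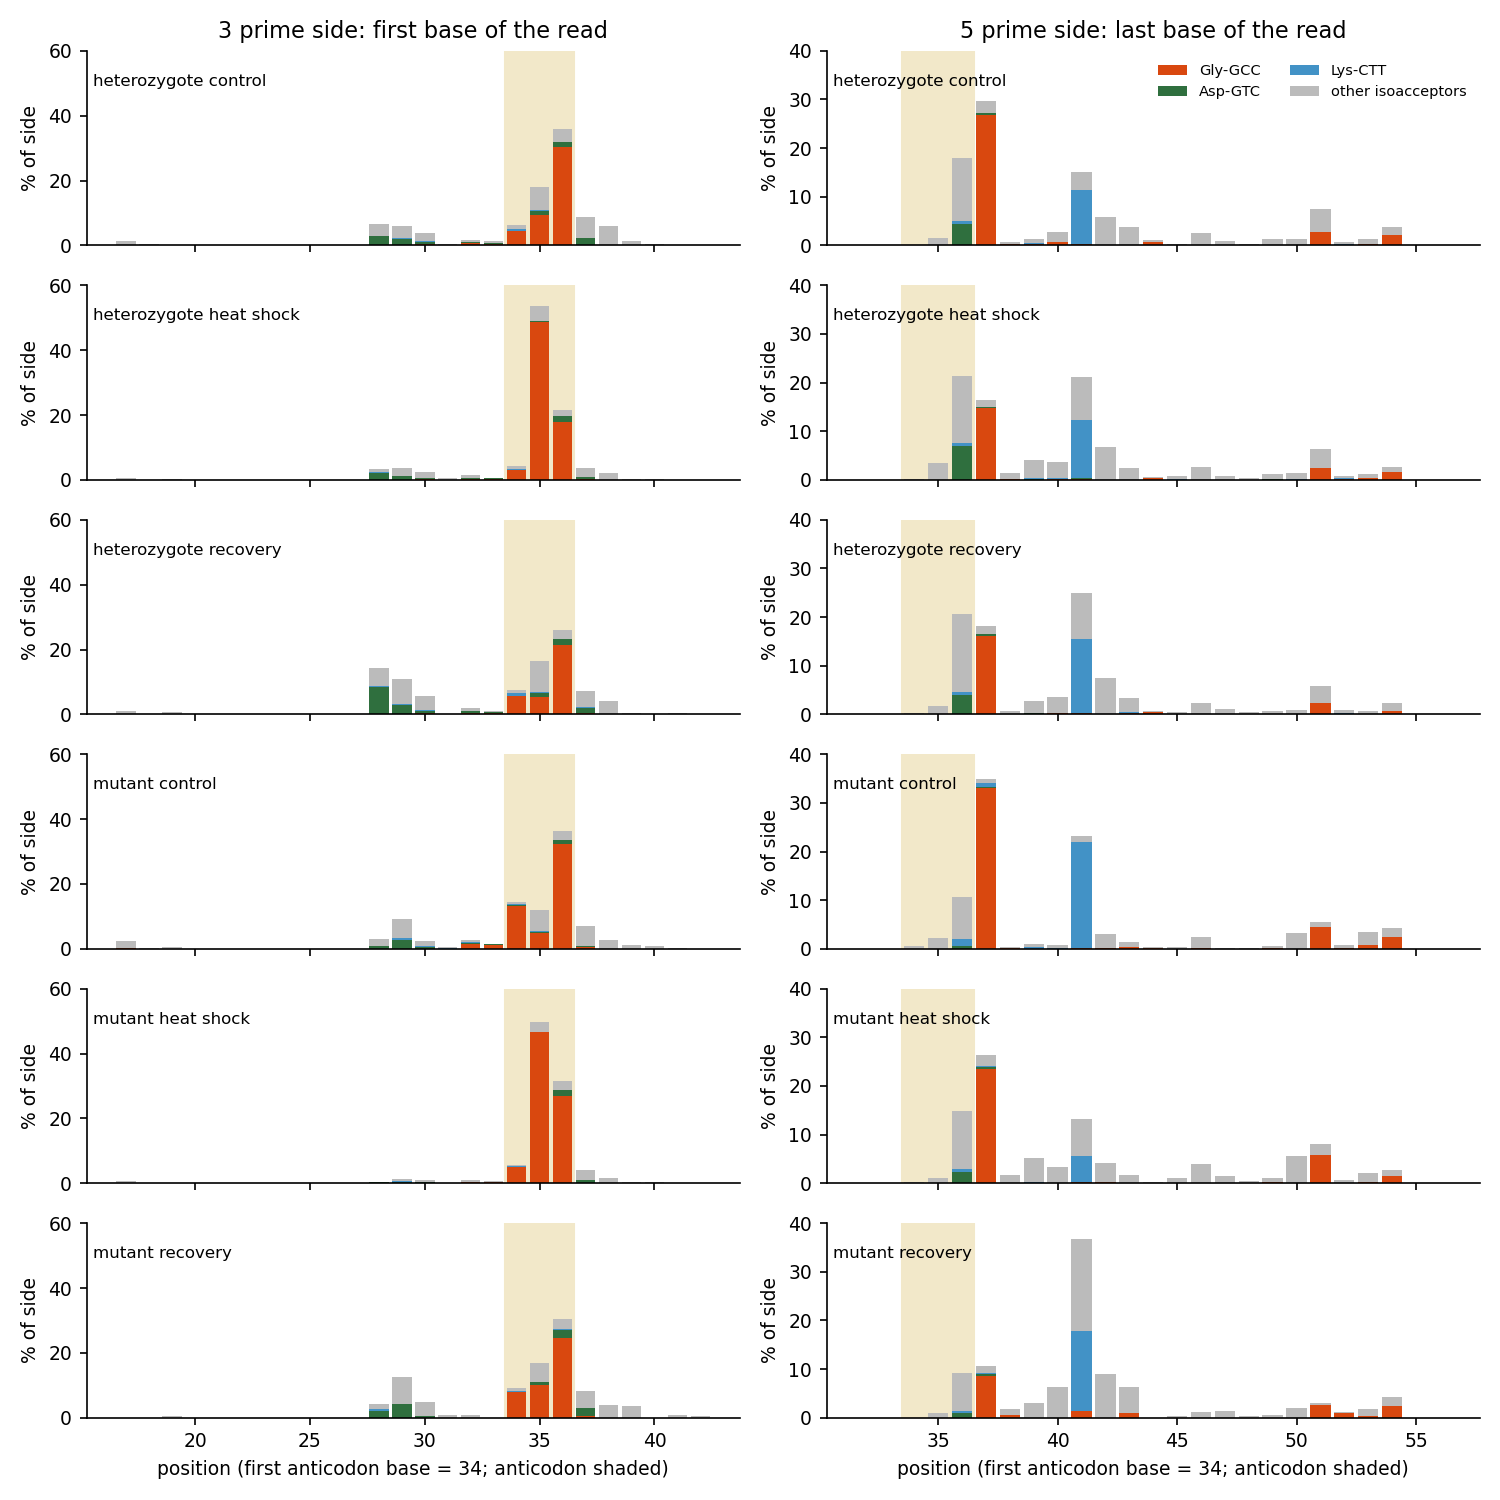
Position of the cut end in reads of 36 to 50 nt, longer reads taken off, as percent of the reads of that side in each library; left, first base of 3′-side reads, right, last base of 5′-side reads, with the anticodon shaded. The bar at base 35, mostly Gly-GCC, is the tallest on the left in both heat shock libraries, and the Lys-CTT bar at base 41 appears on the right in all 6.

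Long 5′-side reads that begin at the first base end at about base 36 or later by the choice of length alone. For Gly-GCC the earliest such end is base 37. Within the range that length allows, the end differed by isoacceptor. With the longer reads taken off, Gly-GCC ended at base 37 in 48.3% to 78.1% of its 5′-side reads. As listed, the range was 9.97% to 71.2%, and in mutant recovery 78.7% ended at base 48. Lys-CTT ended at base 41 in 82.1% to 94.8% with the longer reads taken off, and its 41-nt read had 83, 229, 290 copies for heterozygotes against 492, 79, 51 for mutants. Mutant heat shock was the low library for Lys-CTT, with 3.19 class reads per 1000 listed against 10.2 in mutant control and 7.01 in heterozygote heat shock. The 36-nt Gln-CTG read printed above was found 47, 54, 162 times for heterozygotes against 118, 92, 9 times for mutants. The 42-nt Cys-GCA read had 12, 17, 27 against 10, 4, 6 copies. Cys-GCA reads of 30 to 35 nt rose after heat shock (log2 2.27 ± 0.55 SE, edgeR adjusted p = 0.0012). Its long reads were 2.31 per 1000 listed in heterozygote control and 1.15 after heat shock, and 0.58 and 0.50 in mutants. No test of these long reads is given, since they passed the filter on low counts through control and recovery libraries alone. The difference between the length classes was not tested.

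The cut positions of Asp-GTC, a Dnmt2 substrate, were read in the same way. Its 3′-side reads began at base 28, in the stem in front of the anticodon, in 25.2%, 30.2%, 46.0% of cases for heterozygotes, with the longer reads taken off. In mutants base 28 began 10.4%, 8.18%, 16.7%, all below the heterozygotes. The difference was -22.0 ± 7.27 points (SD, 3 pairs, exact permutation p = 0.25), for a position chosen after its values were seen and with 21, 9, 5 mutant reads. No genotype difference in cut position can pass a threshold of 0.05 with 3 pairs. The 45-nt read from base 28 printed above had 19, 82, 133 copies for heterozygotes against 7, 7, 4 for mutants. Base 29 showed no such order, at 16.5%, 15.4%, 15.2% against 40.3%, 11.8%, 33.3%. Base 36, the last anticodon base, began 14.6%, 26.2%, 10.1% of these reads for heterozygotes against 16.4%, 45.5%, 20% for mutants. Each genotype had its highest value after heat shock.

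Reads of the class also recorded the base at position 58, taken as 15 bases before the last annotated base, where the gene has adenosine. In Gly-GCC, 95.6% of the 7851 covering reads of 37 nt or more had another base (95% Wilson interval 95.2 to 96.1). T was read in 88.3% of the covering reads and G in 7.17%. The changed share was 93.6%, 95.2%, 96.2% for heterozygotes against 96.7%, 95.6%, 97.9% for mutants. Ser-AGA had another base in 65.3% of 487 reads, with T in 46.6% and G in 17.7%. Ser-TGA had it in 95.8% of 24 reads, Leu-AAG in 77.1% of 35 and Leu-CAG in 26.9% of 67. Asp-GTC had it in 0 of 1579 reads, where 3 reads would make 0.19%, and Arg-CCT in 0 of 461, Met-CAT in 0 of 264 and Trp-CCA in 0 of 219. The isoacceptors thus fell into a set with many changed reads and a set with none seen, and libraries varied little within Gly-GCC.

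**Figure D4:**
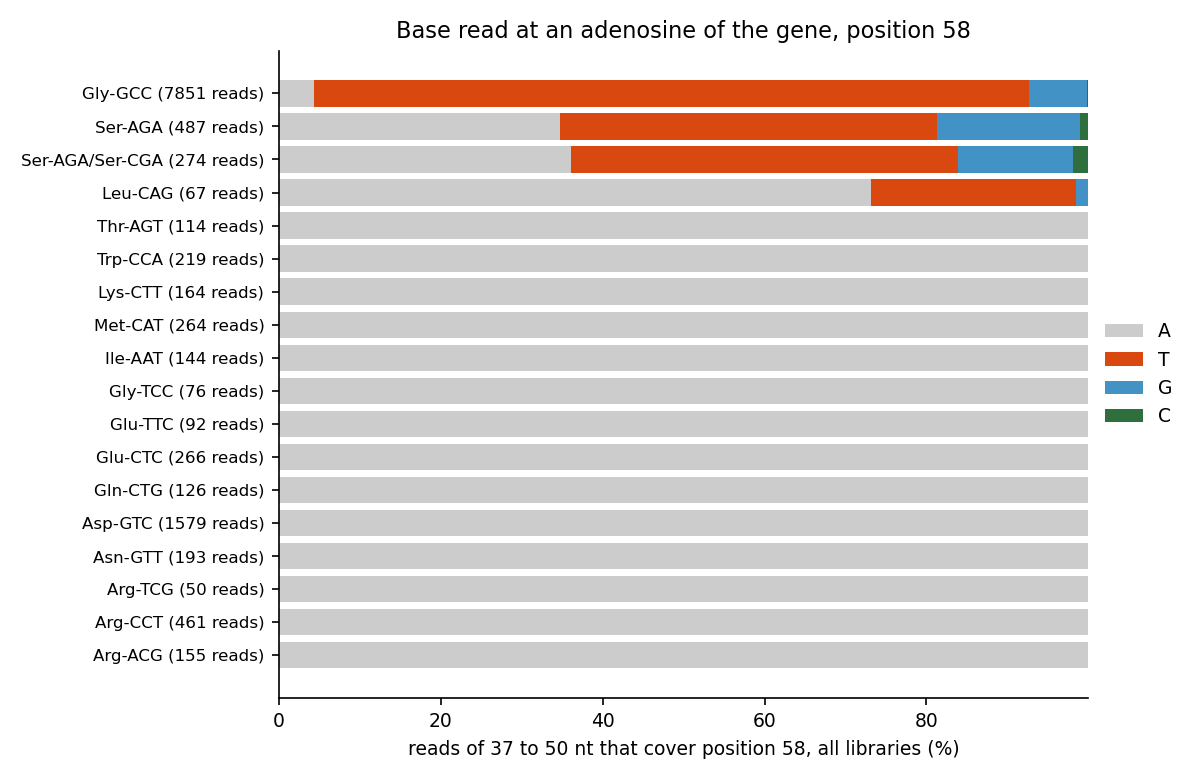
Base read at T loop position 58 in reads of 37 to 50 nt, as percent of the covering reads of all 6 libraries summed, for isoacceptors with at least 50 such reads and an adenosine in the gene. Gly-GCC, the Ser isoacceptors and Leu-CAG show T, G or C, and the other bars are A throughout.

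Inosine at the first anticodon base gives a second such record. Ile-AAT reads that cover base 34 had G in 90.4% of 104 reads, and Pro-AGG in 84.1% of 44, where the genes have A. Mismatches other than at position 58 differed between the libraries of the genotypes, where library and genotype cannot be told apart. C read at a gene's A was found in 0.991%, 0.779%, 1.34% of placed class reads of 37 nt or more for heterozygotes against 3.57%, 4.43%, 6.19% for mutants. Other mismatches were in 6.09% to 10.05% of reads in heterozygotes and 17.3% to 20.9% in mutants, with no overlap. These shares are of listed reads and hold shortened forms. Reads with such a mismatch numbered 142, 375, 341 for heterozygotes against 1139, 708, 145 for mutants. Gly-TCC reads with T for C at base 20 numbered 33, 59, 35 against 438, 259, 32. Most of those were a 46-nt form that only repeats longer reads. The part of mismatches in the genotype differences was not tested. A 36-nt read is listed only when exact, so mutant reads of that length with such a mismatch would be missing.

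Counts of each isoacceptor in each length class were compared between genotypes with edgeR's quasi-likelihood test, over the 3 conditions, with p-values adjusted over all features tested. Of 31 features tested, 10 passed an adjusted p of 0.05 (32.3%), while in the 36 to 50 nt class 2 of 11 did (18.2%), Gly-TCC higher and Asp-GTC lower in mutants. Over all features 6 were higher (19.4%) and 4 lower (12.9%). Some of the higher ones, all of 51 nt, passed the filter on low counts through the mutant libraries alone, so these shares are no plain background for the class. Its median log2 change was -0.30, against -0.20 over all features tested. Under total-count scaling the median over all features was -0.37.

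Asp-GTC reads of 36 to 50 nt numbered 191, 669, 713 for heterozygotes against 338, 183, 50 for mutants. Per 1000 listed reads these were 12.2, 14.2, 24.1 against 4.90, 4.78, 9.12, so the genotypes did not overlap. The log2 change was -1.26 ± 0.38 (SE, adjusted p = 0.00693). Its 30 to 35 nt reads changed by -0.84 ± 0.48 (adjusted p = 0.181). Leaving out any library but heterozygote recovery lost the call: the adjusted p was 0.122 without heterozygote control, 0.249 without heterozygote heat shock, 0.227 without mutant control, 0.892 without mutant heat shock and 0.115 without mutant recovery. In each of these fits the log2 change stayed negative, between -1.34 and -0.76. The Asp-GTC call was also lost when reads of the longest listed length were left out. Of 12 alternative settings, the fits with a library left out included, 6 kept the call.

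In a split by side that was chosen after seeing the data, Asp-GTC 5′-side reads were 40, 175, 99 for heterozygotes against 20, 47, 4 for mutants. No test of these is given, since they passed the filter on low counts through the heterozygote libraries alone. The 3′-side reads changed by -0.91 ± 0.33 and did not pass (adjusted p = 0.0712). Whether the sides differ from each other was not tested. Most of the 5′-side reads were the printed 36-nt read, with 36, 156, 87 against 15, 36, 3 copies.

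Gly-TCC had 63, 130, 86 class reads for heterozygotes against 507, 326, 52 for mutants. Its log2 change of 1.57 ± 0.29 (adjusted p = 1.39e-05) rests on shortened forms. With the longer reads taken off it had 30, 69, 51 against 64, 49, 14 reads, too few to pass the filter on low counts. A 46-nt Gly-TCC form with 24, 47, 29 reads against 404, 228, 27 repeats reads of 51 nt throughout. Gly-TCC reads of 51 nt numbered 26, 59, 36 against 574, 325, 41. No test of them is given, since they passed the filter on low counts through the mutant libraries alone. Without mutant heat shock the adjusted p for the class was 0.369, without mutant recovery 0.115, without mutant control 0.0626 and without heterozygote heat shock 0.248.

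**Figure D5:**
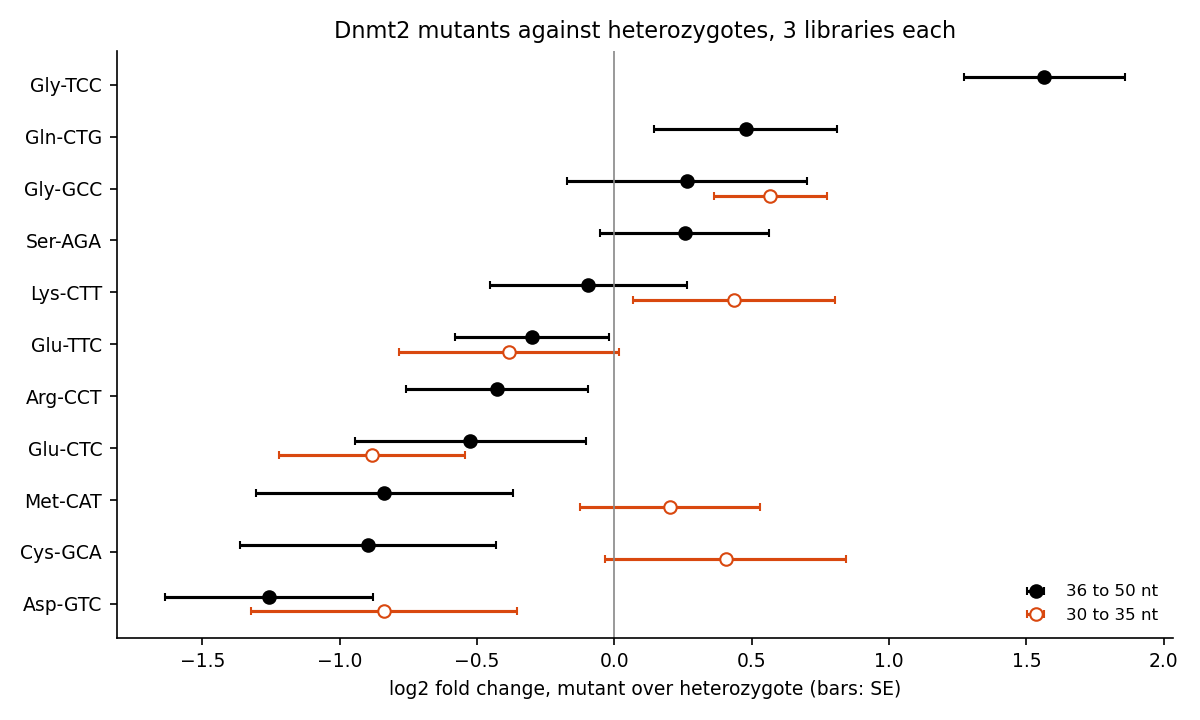
Log2 fold change of Dnmt2 mutants over heterozygotes (edgeR, bars are SE) for the isoacceptors tested in the 36 to 50 nt class (filled), with their 30 to 35 nt reads where these were tested (open). Gly-TCC and Asp-GTC are the points farthest from 0 among the long reads, and the Gly-TCC value rests on shortened forms.

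The other 9 isoacceptors tested in the class did not pass between genotypes. Gly-GCC long reads changed by log2 0.27 ± 0.44 (adjusted p = 0.585) and its 30 to 35 nt reads rose by 0.57 ± 0.21 (adjusted p = 0.0272). Glu-CTC long reads changed by -0.52 ± 0.42 (adjusted p = 0.353), and its 30 to 35 nt reads fell by 0.88 ± 0.34 (adjusted p = 0.0344). In both tRNAs the 2 length classes had the same sign. Lys-CTT, Gln-CTG, Glu-TTC, Ser-AGA, Arg-CCT, Cys-GCA and Met-CAT had log2 changes between -0.90 and 0.48 in the class.

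Heat shock was compared with control over both genotypes, 2 libraries against 2. In all length classes 4 of 31 features passed (12.9%), and 0 of the 11 in the 36 to 50 nt class did by edgeR or by DESeq2, which called 3 of 31 in all (9.68%). Unadjusted edgeR p-values were below 0.05 for 3 of the 11 (the share over all features is not given here). These were Lys-CTT (log2 -1.10 ± 0.44), Ser-AGA (-0.80 ± 0.37) and Met-CAT. No value is given for Met-CAT, since it passed the filter on low counts through control and recovery libraries alone. The median of all features was -0.44 with the scaling used and 0.05 with the alternative RLE size factors, and the class median with the scaling used was -0.47, so these values are to be read against that shift. Without mutant control the Lys-CTT value was 0.00314. Gly-GCC, with 45.6 class reads per 1000 in heterozygote control against 79.5 after heat shock and 41.1 against 69.1 in mutants, had a log2 change of 0.50 ± 0.53 (adjusted p = 0.475). Lys-CTT moved unlike between genotypes, with a log2 ratio of reads per 1000 of 0.05 (exact interval -0.27 to 0.38) in heterozygotes and -1.68 (-1.97 to -1.40) in mutants, where intervals cover counting error only.

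Recovery was compared with control in the same way. In all length classes 1 of 31 features passed (3.23%), the 30 to 35 nt Gly-GCC reads at log2 -1.08 ± 0.26 (adjusted p = 0.00252), whereas long Gly-GCC reads changed by -0.09 ± 0.53 (adjusted p = 0.926). Of the class, 0 of 11 features passed by edgeR, while 2 had an unadjusted p below 0.05 (the share over all features is not given here). These were Glu-CTC at log2 1.16 ± 0.52 (adjusted p = 0.132) and Glu-TTC at 0.71 ± 0.35 (adjusted p = 0.152). DESeq2 called 1 of them, Glu-CTC, at log2 1.45 with an adjusted p of 0.0388. Glu-CTC reads of 30 to 35 nt changed by 0.18 ± 0.41 (edgeR adjusted p = 0.853). The median of all features was -0.21, and 0.10 with RLE size factors. Glu-CTC class reads per 1000 were 11.8 in heterozygote control and 25.8 in recovery, and 4.56 and 21.9 in mutants, higher after recovery in both genotypes. After heat shock they were 16.3 in heterozygotes and 11.6 in mutants, also above control, so the rise was not particular to recovery. The mutant recovery values rest on 120 Glu-CTC reads.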

How the data were processed

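Per the file headers, the deposited lists give, for each sequence and tRNA gene, a whole-number read count made by the authors without normalization. Alignment was with Bowtie to dm3, per the submitters' processing notes; its version and mismatch settings are unknown here. Listed reads number 5485 to 68923 per library, which is part of a library and not its depth. Reads carry no molecular identifiers, so intervals cover counting error only.

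Each sequence was counted once per library at its lowest listed count; the alternative took longer reads off shortened forms. Gene sequences were rebuilt from overlapping reads, with the anticodon placed in 273 of 297 genes, and 288 gene names were found in the RefSeq table, whose build differs, so coordinates are left out. Reads were summed by isoacceptor and length class and tested with glmQLFit and glmQLFTest of edgeR 4.0.16, run under R 4.3.3 (TMM, genotype and condition additive, 2 residual degrees of freedom, spread pooled over features). Features needed the CPM equal to 10 counts in the smallest library in at least 3 libraries; 31 of 125 passed, 11 of 49 in the class. The test was also run on simulated counts with the fitted spread and known changes. The simulated counts held no shortened forms and no effects that differ between genotypes, so they do not bear on calls that depend on these. DESeq2 1.42.0 was an alternative. Exact permutation tests used Python 3.11.15 and SciPy 1.17.1. Named were isoacceptors with a mean share of at least 1% and the 10 leading sequences. Members, lists and tests were chosen with earlier results of these data known.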

Additional observations from a re-analysis of the deposited data

Results flagged for a closer look

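Gly-TCC reads of 36 to 50 nt moved in opposite directions after heat shock in the genotypes. In heterozygotes they went from 63 reads in control to 130, or from 4.03 to 2.77 per 1000 listed reads, a log2 ratio of -0.54 (exact interval -0.99 to -0.09, counting error only). In mutants they went from 507 to 326 reads, or from 7.36 to 8.52 per 1000, a log2 ratio of 0.21 (0.01 to 0.42). The difference between these ratios was not tested, since each group holds 1 library, and most of the mutant reads are shortened forms of longer reads.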

How the results depend on the processing

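Taking longer reads off shortened forms gave class shares of 10.9%, 14.3%, 15.0%, 8.35%, 11.3% and 11.1% (heterozygote control, heat shock and recovery, then mutants in that order), and a class of 37 to 49 nt gave 8.80%, 12.9%, 13.4%, 7.58%, 10.2% and 14.7%. Without reads of 51 nt in the total, the 5 shares after heterozygote control were 15.8%, 17.8%, 10.2%, 13.1% and 17.7%. Without Gly-GCC the shares were 15.5%, 13.2%, 18.3% and 13.5% in the first 4 libraries and 20.6% in mutant recovery. Under that setting the genotype difference was 0.0243 points, and the heat shock difference -2.36 points in heterozygotes and -0.609 in mutants, against 3.33 and 2.77 with it. For 37 to 49 nt the heterozygote heat shock difference was 4.10 points. The genotype difference in class share stayed between -2.23 and -1.18 points with a pair left out, and that in 3′ share between -14.1 and -6.25.

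The 3′ share, with longer reads taken off, was 66.2%, 49.02%, 53.0%, 61.9% and 40.6% from heterozygote heat shock on. Counting only reads that reach a tRNA end gave, as listed, 39.1% in heterozygote recovery, 40.5% in mutant control and 23.8% in mutant recovery. Without Gly-GCC it was, as listed, 46.0%, 43.6%, 44.7%, 38.3% and 26.6% in the first 5 libraries. Starts at bases 33 to 39 made up 77.5%, 86.5%, 63.0%, 75.5% and 93.9% with longer reads taken off in these 5, and 60.4%, 55.9%, 46.8%, 51.1%, 63.3% and 60.8% by distinct sequence in all 6.

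Between genotypes 2 class features were called. Without the filter 5 of 49 were, including His-GTG. With longer reads taken off 1 was (Asp-GTC), and with reads of 51 nt left out 1 was (Gly-TCC). When split by side with longer reads taken off (added after the data were seen), 1 of 11 was, against 5 of 30 over all length classes (16.7%). The call in that split, of Asp-GTC 5′-side reads, passed the filter through the heterozygote libraries alone. For the other settings the share over all features is not given here, so their counts are not read as results about the class. With 1 library left out the count of class features called ranged from 0 to 3. It ranged from 0 to 1 for heat shock, where Lys-CTT passed without heterozygote recovery, and from 0 to 1 for recovery, where Glu-CTC passed without that library and DESeq2 called 1. The cause was not tested for these changes. No paired analysis was possible because the replicate number is 1 in every library, apart from the pairing by condition that the genotype tests use. Depth limits mutant recovery most, with 910 class reads.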
